A study of Rattus norvegicus with 183 samples.

Results

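Outbred heterogeneous stock rats gave the polyadenylated RNA sequenced here, dissected from the posterior part of the ventral tegmental area, where dopamine neurons of the midbrain lie, and 152 of the 183 samples of the series were analysed here. The other 31 samples are labelled as removed. The rats received no treatment that the labels name, and the labels give neither sex nor age. They are divided here by the format of the animal's identifier (decimal or hexadecimal). Each library is 1 dissected sample, and libraries are named here by identifier format and a number. This account compares libraries with a high and with a low interferon response. The sides were chosen by measured values: the 141 libraries in which Th (tyrosine hydroxylase, which makes the dopamine precursor) reached 10 CPM (counts scaled to a library total of 1e6) were ranked by the mean log2(CPM+1) of Ifit2, Ifit3 and Irf7. The 20 highest libraries form the high side, the 60 lowest form the low side, and 61 libraries lie in neither. The high side has 7 decimal and 13 hexadecimal identifiers, and the low side has 18 decimal, 41 hexadecimal and 1 of another form. The labels also carry a note of an original label for 3 libraries of the high side, 8 of the low side and 6 of neither. The share with a decimal identifier was 35.0% on the high and 30.0% on the low side (Fisher's exact test, two-sided, p = 0.782).

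Interferons are secreted signals of the innate immune response. Type I interferons bind the Ifnar1 and Ifnar2 receptor, whose kinases Jak1 and Tyk2 activate STAT transcription factors, and with Irf9 these form the complex ISGF3, which binds the interferon-stimulated response element (ISRE) in promoters. Interferon gamma acts through another receptor and STAT pairs that bind the gamma-activated sequence (GAS). The induced genes encode sensors of foreign RNA, proteins that block viral replication, guanylate-binding and immunity-related GTPases, and the machinery that presents peptides on MHC class I. Brain cells of every major type can respond, and in the unchallenged brain the level is low.

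The ISRE is the sequence that ISGF3 binds, so it is shown first, in promoters from RefSeq (build GRCr8). The genes shown were picked among those with a match. Most tested interferon genes with a promoter had no match in the window searched, as counted below. Each stretch below is 5′ to 3′ on the gene's strand, lies wholly before the transcription start, and has the bases that match GAAANNGAAA in capitals. A match on the other strand reads as the reverse complement. Ifit3 and Irf7 are ranking genes, and the other genes are an RNA-virus inhibitor (Rsad2), 2 of the 2′-5′ oligoadenylate synthetase family (Oas1a, Oasl2), 2 guanylate-binding proteins (Gbp2, Gbp7) and a peptide transporter for MHC class I (Tap1).
Ifit3 (chr1:241527237-241527325, plus strand): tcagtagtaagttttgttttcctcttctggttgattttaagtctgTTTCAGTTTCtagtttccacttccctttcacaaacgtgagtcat
Irf7 (chr1:205800038-205800137, minus strand): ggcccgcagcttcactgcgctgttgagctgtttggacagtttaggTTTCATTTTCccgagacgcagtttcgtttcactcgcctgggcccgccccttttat
Oas1a (chr12:41330380-41330465, plus strand): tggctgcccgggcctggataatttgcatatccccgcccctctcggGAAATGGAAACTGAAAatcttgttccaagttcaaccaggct
Rsad2 (chr6:48788213-48788312, minus strand): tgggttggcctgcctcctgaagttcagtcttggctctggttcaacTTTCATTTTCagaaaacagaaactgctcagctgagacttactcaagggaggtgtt
Oasl2 (chr12:47383282-47383381, minus strand): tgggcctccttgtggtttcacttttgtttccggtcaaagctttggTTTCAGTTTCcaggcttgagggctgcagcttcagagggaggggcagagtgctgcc
Gbp2 (chr2:234005651-234005726, plus strand): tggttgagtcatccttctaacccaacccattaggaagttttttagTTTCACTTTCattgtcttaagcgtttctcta
Gbp7 (chr2:233948803-233948888, plus strand): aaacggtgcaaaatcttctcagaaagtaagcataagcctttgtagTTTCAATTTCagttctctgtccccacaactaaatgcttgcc
Tap1 (chr20:4668610-4668709, minus strand): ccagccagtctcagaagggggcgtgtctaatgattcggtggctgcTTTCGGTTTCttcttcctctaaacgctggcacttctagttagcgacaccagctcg

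In Oas1a, 2 overlapping matches form 1 block of capitals. Over windows of 250 bases before to 50 after the start, the ISRE letters were present on either strand in 3.92% of the 33469 RefSeq promoters. They were present in 35 of the 84 tested interferon genes that have a promoter in the table (41.7%), among them 26 of 50 antiviral effectors and 6 of 7 interferon-inducible GTPases. The GAS letters TTCNNNGAA were present in 8.87% of all promoters and in 23.8% of the same 84. Mx1, Herc6 and Psmb9 have neither set of letters in this window. Ifit2, Mx2, Usp18, Rtp4, Isg15 and Dhx58 are not in the table. A match describes the letters only.

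The ranking genes describe the sides and were not tested. Ifit2, an RNA-binding antiviral protein on chromosome 1, had 10.1 to 126 CPM on the high side (median 13.2) and 2.69 to 11.3 CPM on the low side (median 7.08). Ifit3, a partner of Ifit2 on the same chromosome, had 1.91 to 44.6 CPM (median 3.51) against 0.547 to 2.63 (median 1.17). Irf7, the transcription factor that amplifies type I interferon production, had 7.43 to 114 CPM (median 11.2) against 2.77 to 8.25 (median 4.56). Each gene taken alone overlapped between the sides. The mean of the 3 log2 values was 2.95 in the lowest library of the high side and 2.92 in the next one below it. It was 2.45 in the highest library of the low side and 2.48 in the next one above it. The cuts therefore fall within a continuous range, apart from the top.

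**Figure D1:**
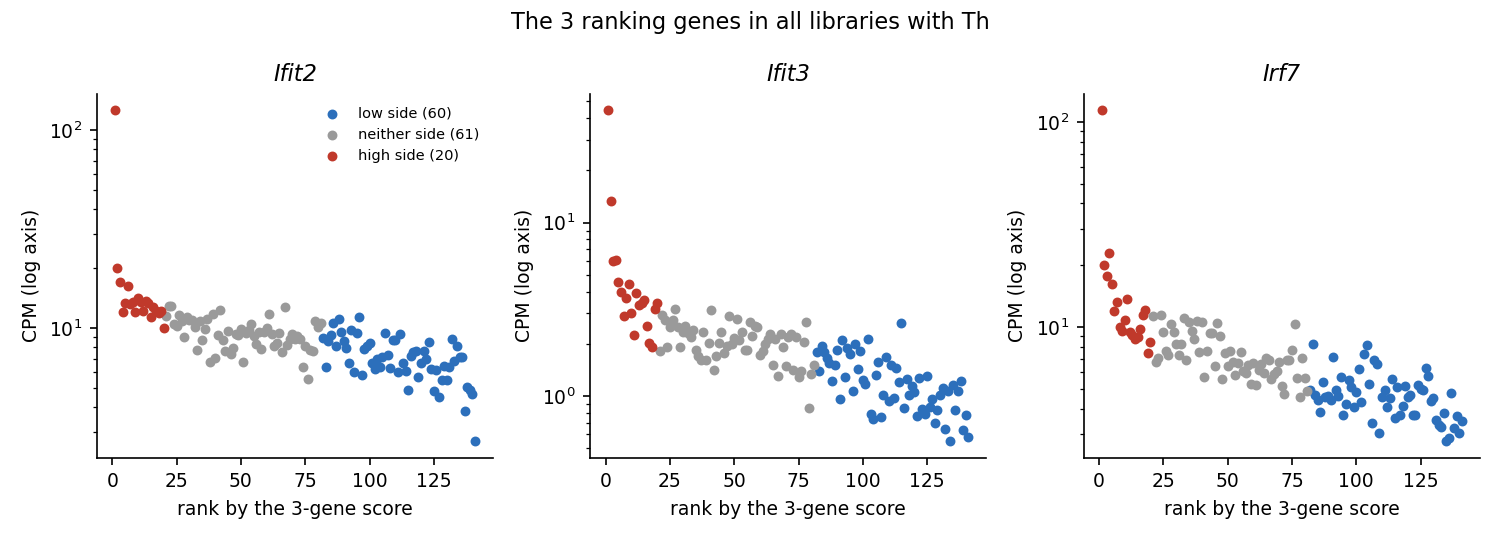
CPM of Ifit2, Ifit3 and Irf7 (log axes) in the 141 libraries, by rank of the 3-gene score; each point is a library and the colour gives the side. The levels decline with rank with scatter, and the first library stands alone at 126, 44.6 and 114 CPM.

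Hexadecimal library 39 stands far above the rest. The counts over all genes, the interferon result and Mx1 are therefore given with and without it, and the other values include it. Its score was 6.45, against 4.21 in the library ranked next. It had 222 CPM of Mx1, a GTPase that blocks viral ribonucleoprotein, where the highest of the other 140 libraries had 28.0. It had 165 CPM of Rsad2 against at most 25.1 elsewhere, and 80.6 CPM of the ubiquitin-like modifier Isg15 against 12.8. Of the 105 tested interferon genes, 58 were higher in it than in every other library with Th, a share of 55.2%, against 1.05% of the 15546 genes that passed the filter. Its meningeal score of 5.01, defined below, was higher than that of 74 other libraries, so it was near the middle of that range. Cxcl10, a chemokine that draws T cells, had 21.9 CPM there and 30.5 CPM in hexadecimal library 19, while the median of the high side was 1.04 CPM.

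The other 19 libraries of the high side showed smaller differences over the interferon genes. Over the 105 interferon genes, each of these libraries exceeded every low-side library in 5 to 71 genes (median 35), against 70 in library 39. Their median log2 excess over the low side's median was 0.13 to 0.93, against 1.32 in library 39. The smallest excess, 0.13, was in decimal library 12 and the largest in hexadecimal library 85. How many of all tested genes exceeded every low-side library was not counted, so the gene counts given here have no background share.

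**Figure D2:**
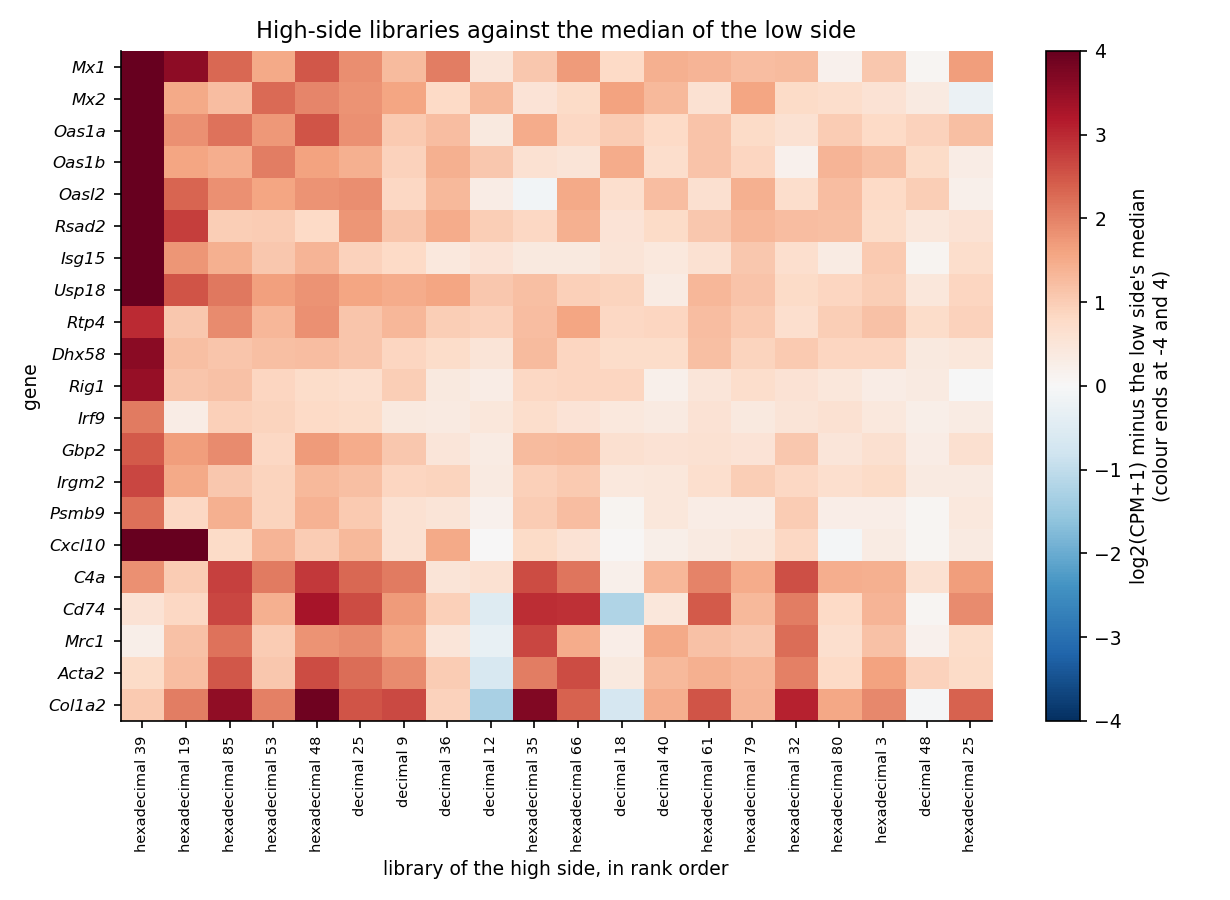
Each column is a library of the high side in rank order and each row a gene; colour is log2(CPM+1) minus the low side's median, with the scale ending at -4 and 4. Library 39 (first column) is dark in the interferon genes and pale in Mrc1 and Col1a2, while hexadecimal libraries 85, 48 and 35 are dark in C4a, Cd74 and Col1a2.

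Across all genes the sides differed widely. Of 15543 genes tested (limma on log2(CPM+1), identifier format as covariate, Benjamini-Hochberg adjusted p under 0.05), 4630 (29.8%) were higher and 1499 (9.64%) lower on the high side. The median difference over all genes was 0.07 (log2), and with median-ratio scaling, which shifts all genes by -0.07, the split became 2914 higher and 3093 lower. Without library 39 the counts were 4503 and 1300. The counts below are read against these shares. Depth was alike, at 16.9 to 46.1 M (1e6) estimated counts on the high side (median 24.4) and 15.2 to 54.4 M on the low side (median 23.7). In these dissected samples, fewer cells of a type and less RNA per cell cannot be told apart.

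The interferon system was mostly higher downstream of the ligands. Of its 105 tested genes in 6 lists, 88 were higher, with a median difference of 0.54, and the other 17 did not pass the test. Without library 39, 84 were called and the median was 0.47. The ligands were near absent: the 10 interferon genes in the file all lay below the filter, and the highest value in a high-side library was 0.130 CPM, of Ifna4. The lists and the genes of the ranking belong to 1 known response, so their joint rise is not independent evidence of it.

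Of the 13 receptor and JAK-STAT genes 9 were higher (median 0.22), and the sizes differed along the pathway. Irf9, the DNA-binding part of ISGF3, had 18.1 to 68.7 CPM on the high side (median 21.9) and 11.4 to 20.1 CPM on the low side (median 15.4), and 16 of the 20 high libraries lay above every low one. The difference was 0.63 (SE 0.06, adjusted p = 1.85e-12). Stat2, another part of ISGF3, differed by 0.28. The receptor chain Ifnar1 rose by 0.22 and Ifnar2 by 0.30, but with the meningeal score (defined below) in the fit neither was called (0.08, adjusted p = 0.629, and 0.09, adjusted p = 0.690). Both chains of the interferon gamma receptor gave values near 0, with -0.01 for Ifngr1 (adjusted p = 0.837) and -0.04 for Ifngr2 (adjusted p = 0.366). Among the 6 tested regulatory factors besides Irf7, 4 were higher, led by Irf8 of myeloid cells (0.48). Irf2 gave -0.02 (adjusted p = 0.665), and the lowest member of the list gave -0.21 and was not called.

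Of 11 tested genes in the list of nucleic acid sensors 8 were higher (median 0.33), led by Dhx58. Trim25, also in this list, differed by 0.95 (SE 0.17), but with the meningeal score it was not called (0.53, adjusted p = 0.204). Dhx58, which encodes LGP2, had 4.94 to 53.9 CPM against 1.92 to 6.60 (medians 7.30 and 3.50), a difference of 1.06 (SE 0.10, adjusted p = 7.14e-13). Rig1, which encodes RIG-I, differed by 0.79 and Ifih1, which encodes MDA5, by 0.70. Mavs, the adaptor through which both signal, gave 0.09 (adjusted p = 0.0772), and Sting1, the adaptor of DNA sensing, gave 0.08 (adjusted p = 0.450).

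Antiviral effectors formed the largest group, with 54 of 60 tested genes higher and a median of 0.65. Mx1 had 1.57 to 222 CPM on the high side (median 5.33) and 0.416 to 3.17 CPM on the low side (median 1.42), and 17 of the 20 high libraries lay above every low one. Its difference was 1.73 (SE 0.19, adjusted p = 3.77e-11), and 1.48 without library 39. Oas1a, which makes the signal that activates RNase L, had medians of 4.94 and 1.79 CPM and a difference of 1.39 (SE 0.14). Rtp4, an inducible chaperone-like protein, had 4.85 to 28.2 CPM against 1.05 to 5.34, with 18 high libraries above every low one and a difference of 1.26 (SE 0.10, adjusted p = 4.28e-16). Rsad2 differed by 1.30, Oasl2 by 1.27 and Mx2 by 1.22. Members near the list's median were Helz2 and Oas1i (0.69 each) and Sp110 (0.65). The RNA editing enzyme Adar gave 0.05 (adjusted p = 0.250) and the membrane protein gene Ly6e -0.14 (adjusted p = 0.127). Oas and Mx genes have close relatives, so the assignment of reads among them is uncertain.

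Usp18, which removes Isg15 from proteins and damps receptor signalling, had 2.80 to 74.8 CPM on the high side (median 5.78) and 0.831 to 5.60 on the low side (median 2.03). All 20 high libraries were above the low side's median, and the difference was 1.42 (SE 0.14, adjusted p = 6.49e-13). Isg15 differed by 1.02 (SE 0.13), with medians of 5.48 and 3.03 CPM. Another brake on cytokine signalling, Socs1, gave 0.01 (adjusted p = 0.955).

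All 8 tested interferon-inducible GTPases were higher, with the highest median of the 6 lists (0.83). RGD1309362, which RefSeq lists under the synonym Ifgga1, differed by 1.30 (SE 0.17) and Gbp2 by 1.05 (SE 0.11), with medians of 7.23 and 3.91 CPM for Gbp2. Irgm2 had 12.4 to 65.9 CPM against 5.45 to 13.7, and 15 high libraries lay above every low one. The smallest member was Gbp7 with 0.44.

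**Figure D3:**
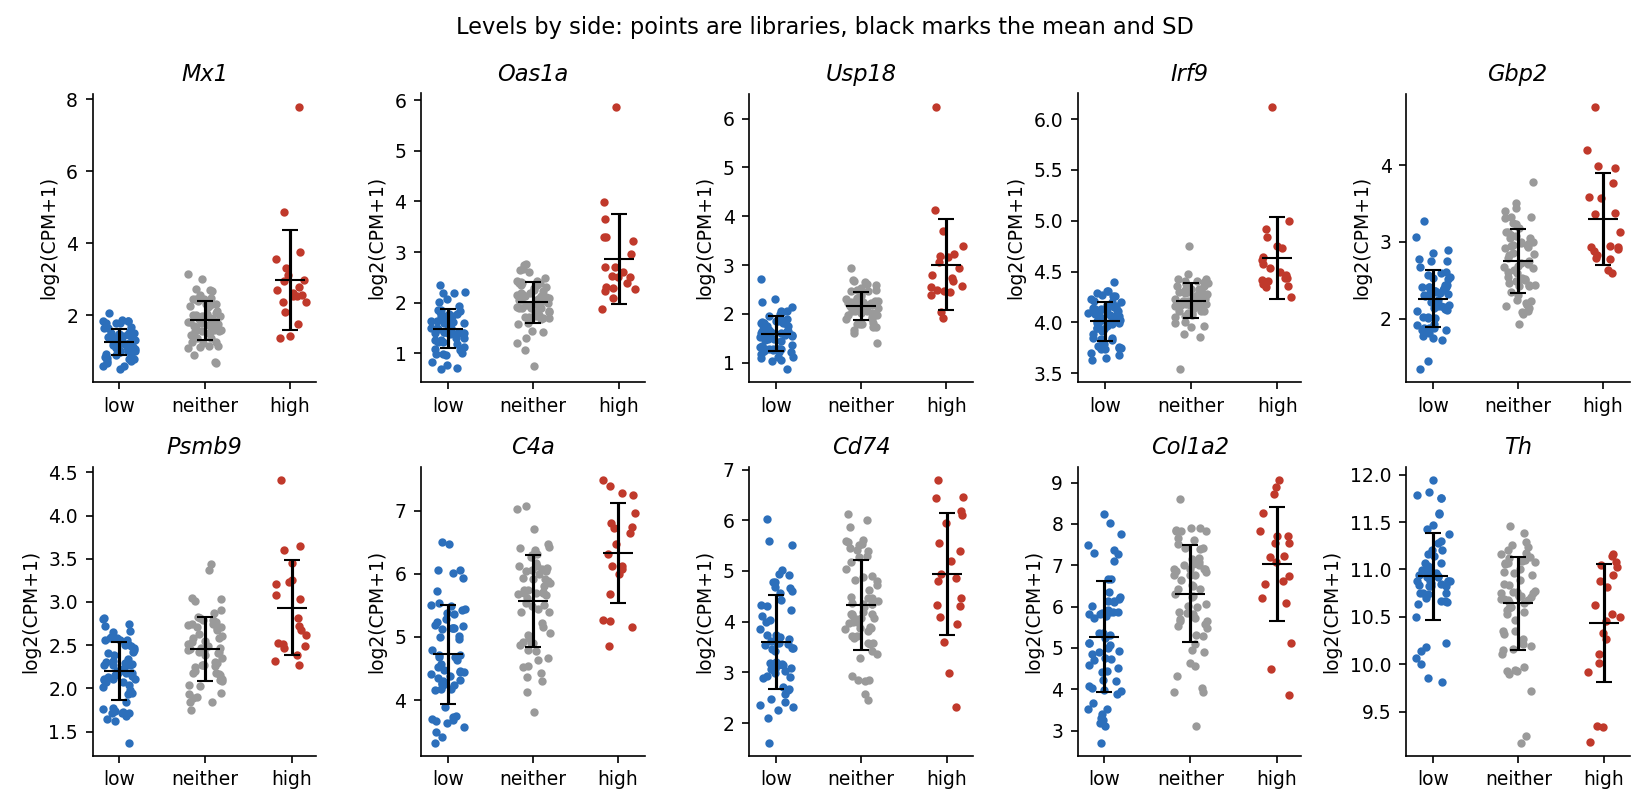
log2(CPM+1) of 10 genes by side; points are libraries and black marks give the mean and SD. Mx1, Oas1a, Usp18, Irf9 and Gbp2 step up from low to high, and all but Gbp2 have 1 isolated top library. In contrast, C4a, Cd74 and Col1a2 have broad overlapping ranges, and Th lies lower on the high side.

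Antigen presentation by class I moved with these genes: 15 of 20 tested members were higher, with a median of 0.40. The class I gene RT1-S3 had 31.1 to 126 CPM against 12.0 to 33.5 (medians 38.9 and 23.4), and 18 high libraries lay above every low one (difference 0.89, SE 0.08, adjusted p = 2.18e-13). The immunoproteasome subunits Psmb9 and Psmb8 differed by 0.74 and 0.69, the class I transactivator Nlrc5 by 0.71 and Tap1 by 0.57. B2m, the light chain of class I, differed by 0.27 with medians of 422 and 357 CPM. RT1-CE16 ran the other way on average (-0.95, SE 0.48, adjusted p = 0.101) with a range of 0.677 to 135 CPM within the low side. RT1 genes are polymorphic and have near-identical copies, so read assignment among them is uncertain in outbred rats.

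MHC class II and complement were also higher, with wider spread. Of 7 tested class II genes 5 were higher (median 1.22). Cd74, the invariant chain, had 3.99 to 110 CPM on the high side (median 28.9) and 2.06 to 63.8 CPM on the low side (median 10.4), and 5 high libraries lay above every low one (difference 1.37, SE 0.24, adjusted p = 1.08e-05). In library 39 it had 15.9 CPM, below the high side's median. Of 12 complement genes 11 were higher (median 0.75), led by C4a with medians of 83.3 and 24.2 CPM and a difference of 1.61 (SE 0.20). C1r and C1s, the proteases of the C1 complex, differed by 1.22 and 1.14, and their inhibitor Serping1 by 1.23. C4a and C4b are close copies, and reads may be split between them.

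The high side also held more RNA of meningeal, vascular and border-macrophage genes, and these are given beside the interferon result because they move with it. All 8 meningeal fibroblast markers were higher, with a median of 1.41. Col1a2, a fibrillar collagen chain, had 13.6 to 532 CPM on the high side (median 147) and 5.55 to 301 CPM on the low side (median 35.2). The sides overlapped broadly, with 4 high libraries above every low one, and the difference was 1.78 (SE 0.34, adjusted p = 3.44e-05). Igf2, a growth factor of the leptomeninges, differed by 1.79 (SE 0.34), with medians of 644 and 152 CPM. The mean log2(CPM+1) of the 8 markers, called the meningeal score, was 3.48 to 7.54 on the high side (median 5.84), 2.53 to 6.79 on the low side (median 4.36) and 2.85 to 7.26 in the libraries of neither side (median 5.42). In 18 of the 20 high libraries it exceeded the low side's median. The exceptions were decimal libraries 12 and 18, with scores of 3.48 and 3.50. In these, 9 and 18 of the 105 interferon genes exceeded every low-side library, a count not made over all tested genes.

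**Figure D4:**
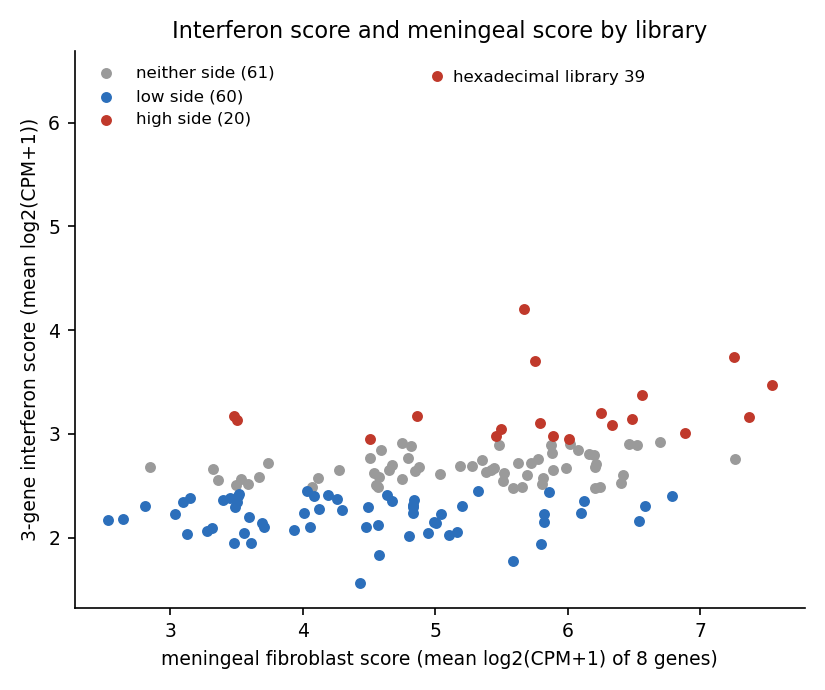
The 3-gene interferon score (vertical) against the meningeal score (horizontal), each a mean log2(CPM+1), for the 141 libraries coloured by side. High libraries spread from 3.48 to 7.54 on the meningeal score, mostly to the right of the low side's median of 4.36, and library 39 lies at 5.01 with a 3-gene score of 6.45.

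Other cell types followed in part. Of 8 mural cell genes 6 were higher (median 0.60). The smooth muscle genes Myh11 (1.47), Tagln (1.32) and Acta2 (1.24) lay far above Kcnj8 (0.06, adjusted p = 0.652) and Abcc9 (0.02, adjusted p = 0.829). The remaining members, Pdgfrb, Rgs5 and Notch3, were also called higher, so Kcnj8 and Abcc9 do not stand for all pericyte genes. All 6 tested markers of perivascular macrophages were higher (median 0.84), led by F13a1 (1.27) and the mannose receptor Mrc1 (1.03). The summed level of those 6 was 16.8 to 121 CPM on the high side (median 52.01) and 6.96 to 68.3 CPM on the low side (median 20.8). In contrast, microglia, the resident macrophages of the tissue, had 6 of 12 markers higher and a median of only 0.23, with P2ry12 at 0.22 (adjusted p = 0.0569) and Tmem119 at 0.14 (adjusted p = 0.168). Their summed level was 330 to 515 CPM against 285 to 502 CPM. Of 8 endothelial genes 6 were higher (median 0.37). Among 9 astrocyte genes 7 were higher, with Vim (1.30) and Gfap (1.09) far above Slc1a2 (0.10, adjusted p = 0.210). In the fit with the meningeal score, given below, Vim fell to 0.24 and was the only 1 of the 9 called, so Gfap was not. Gfap had 673 to 4352 CPM against 209 to 2135. Of 6 erythrocyte genes 5 were higher (median 0.84). Blood leukocyte genes were low, and few could be tested. Of the 2 tested T and NK cell genes Cd4, which rat macrophages also express, was higher (0.62), and of 3 tested neutrophil and monocyte genes Lyz2 (0.81) and Cd14 (0.30) were. Another 12 T and NK cell genes lay below the filter, and 11 of them had a higher median on the high side. Over these 12 genes the number of high libraries above every low one ran from 0 to 11 (median 3). Cd8a, of cytotoxic T cells and chosen after its values were seen, had the most, with medians of 0.392 and 0.0621 CPM. Of the B and plasma cell genes only Jchain could be tested, and it was not called (0.0018). The other 5 B cell genes and 5 neutrophil and monocyte genes lay below the filter, and all had higher medians on the high side. The share over all genes below the filter was not computed, so these counts have no background to be read against. The part of these cell types in the immune differences was not tested, beyond the fit that follows.

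Where the meningeal score was added to the fit as a covariate, which was decided after the data were seen, 104 genes were higher (0.669%) and 2 lower (0.0129%). All 104 were among the 4630. They include 52 of the 105 interferon genes, whose median difference became 0.32. Effectors went from 54 to 36 called genes, nucleic acid sensors from 8 to 3, receptor and JAK-STAT genes from 9 to 2, regulatory factors from 4 to 1, and the Isg15 and feedback genes from 5 to 2. Mx1 kept 1.58 (SE 0.22), Usp18 1.43 (SE 0.16), Oas1b 1.37, Oas1a 1.32, Rtp4 1.22 and Rsad2 1.21. All 8 GTPases, 7 class I genes and 5 complement genes (C4a, C4b, C1r, C1s, Cfb) were in the set, with C4a down to 0.66 from 1.61. The MHC class II, perivascular macrophage, mural and endothelial lists had no gene in it, with Cd74 at 0.33 (adjusted p = 0.543), Mrc1 at 0.24 (adjusted p = 0.381) and Acta2 at 0.26 (adjusted p = 0.499). The microglia list had none either, and its median of 0.16 lay near the 0.22 of perivascular macrophages. The meningeal markers fall to 0 in this fit by its construction. The ISRE letters were in 37 of the 81 promoters of these 104 genes (45.7%). For those of the 104 outside the lists the count was 9 of 30 (30%). It was 102 of 3622 (2.82%) for the other genes higher on the high side and 357 of 12678 (2.82%) for all tested genes. The 104 were found through ranking genes of the same response, so their share is not independent evidence of it.

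**Figure D5:**
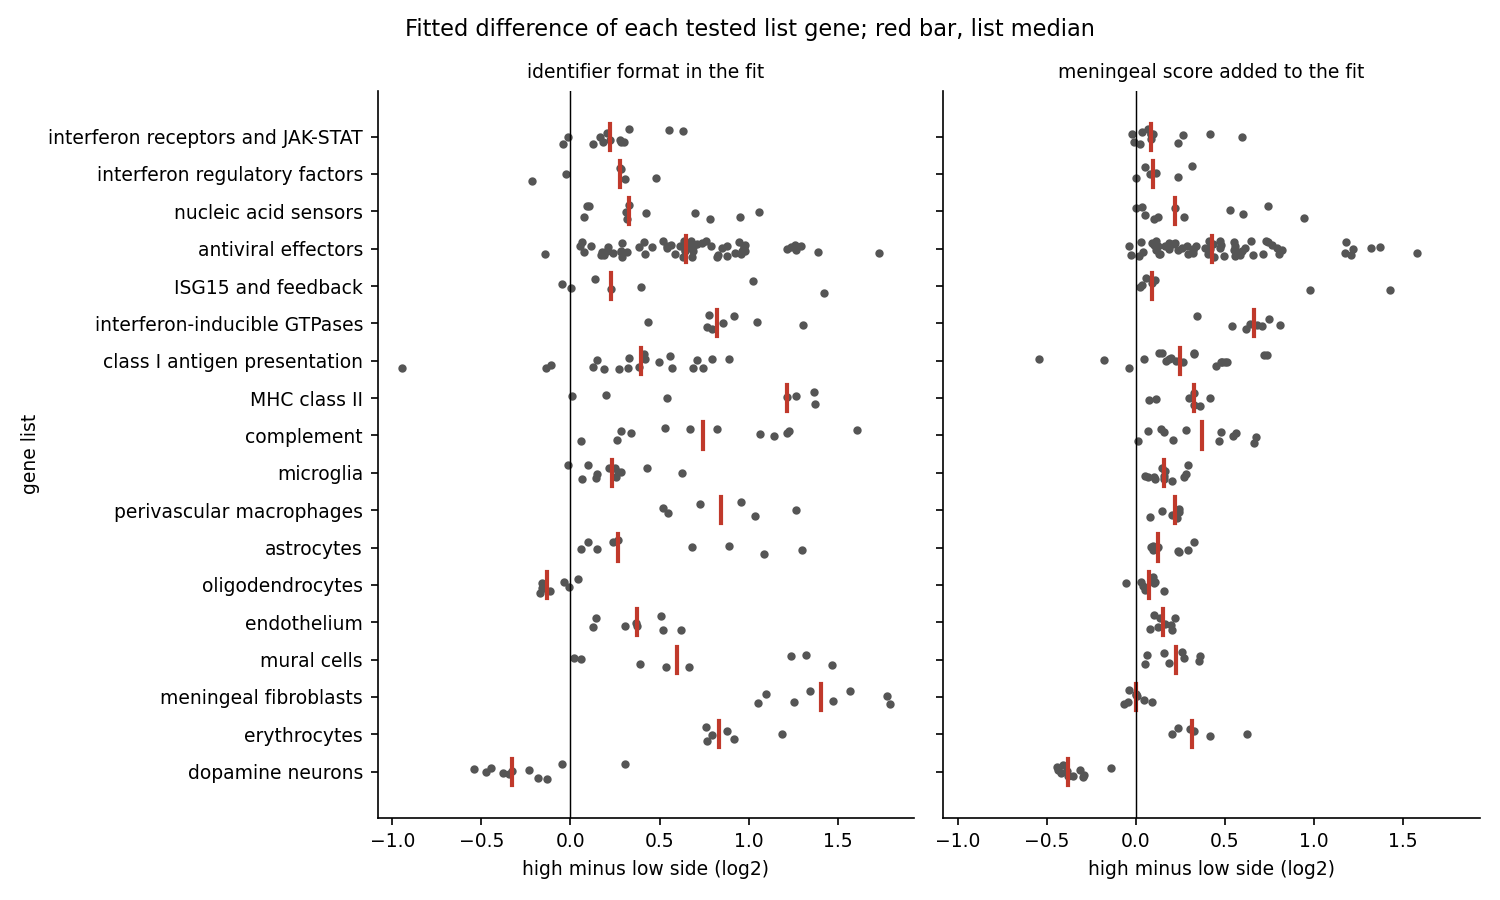
High minus low side difference (log2) for each tested gene of 18 lists, from the fit with identifier format (left) and with the meningeal score added (right); points are genes and red bars list medians. Adding the score moves MHC class II from a median of 1.22 to 0.33 and meningeal fibroblasts from 1.41 to 0.00, while the GTPases move from 0.83 to 0.66.

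Outside the lists, 38 genes were higher in that fit, several of them relatives of listed interferon genes. Slfn4, a schlafen family gene, kept 1.04 and Slfn2 0.64. Apol9a, an apolipoprotein L gene, kept 0.85, the GTPase gene Ifgga2l1 0.85, and Rnf213, a large ubiquitin ligase that targets intracellular pathogens, 0.73. Pik3cg and Inpp5d, which encode enzymes of phosphoinositide signalling, gave 0.35 and 0.29. The 2 lower genes, Dbndd1 and Sertad4, differed by -0.20 and -0.19.

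Without that covariate, the 3 largest rises outside the lists were those of Pappa2, Aldh1a2 and Aebp1. Pappa2, a protease that cleaves insulin-like growth factor binding proteins, had 0.130 to 85.1 CPM against 0 to 45.9 (medians 14.8 and 2.31) and a difference of 1.96 (SE 0.37, adjusted p = 2.52e-05). Aldh1a2, which makes retinoic acid, differed by 1.78, and Aebp1, a protein bound to collagen, by 1.77. C7, a terminal complement gene outside the list, followed with 1.76, the Wnt antagonist Sfrp1 with 1.71, the collagen-binding proteoglycan Fmod with 1.65, the transporters Slc6a20a and Slc13a4 with 1.60 and 1.57, Lbp, which binds bacterial lipopolysaccharide, with 1.58, and Itgbl1 with 1.54. With the meningeal score in the fit each of these 10 lay between 0.03 and 0.29, and none was called.

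Among the genes lower on the high side were those of dopamine neurons, with 6 of 11 lower and a median of -0.33. Th had 581 to 2286 CPM on the high side (median 1465) and 900 to 3934 CPM on the low side (median 1934), and the difference was -0.47 (SE 0.12, adjusted p = 0.00158). The transcription factors En1 and Pitx3 gave -0.54 and -0.45, the synthesis enzyme Ddc -0.33. The dopamine transporter Slc6a3 was not lower (0.31, SE 0.26, adjusted p = 0.340). With the meningeal score in the fit Th gave -0.44 (adjusted p = 0.168) and the list's median was -0.38, with no gene called. Cbln1, which organises synapses, had medians of 51.7 and 85.1 CPM (-0.68), and C1ql4, of the same protein superfamily, 1.27 and 4.73 CPM (-0.99). The other large falls were low or sparse genes: LOC134485838 (-1.82), LOC134479241 (-1.71), LOC120101891 (-1.12), Lnc-hc (-0.97), LOC102554171 (-0.94), Tpsg1 (-0.83), Grifin (-0.82) and Mdfic2 (-0.78). For these 10 genes the difference within decimal libraries was between -0.27 and -0.03. The 8 tested immediate early genes gave a median of 0.04, which became -0.02 with median-ratio scaling and -0.04 with the meningeal score, and the largest value was 0.16 for Ier2 (adjusted p = 0.0641).

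The 61 libraries in neither side were not used in that comparison. There, levels were fitted on the 3-gene score, which spans only 2.48 to 2.92. In this narrow range 8 genes (0.0515%) rose and none fell in limma, while at an unadjusted p under 0.05 there were 2106 rising and 302 falling genes. The 8 were Gbp7, Gbp2, Usp18, Ifi44l, Igtpl1, RGD1309362, Fgfbp3 and Tie1, a receptor of endothelial cells. All 8 were also higher on the high side. The score is the one that ranked the libraries, and its genes belong to the same known response as the interferon lists. This overlap and the slopes are therefore not independent evidence of that response. Gbp7 had the lowest adjusted p (1.48e-04), with a slope of 1.39 log2 units per unit of score (SE 0.21). Usp18 had a slope of 1.35 (SE 0.23) and Gbp2 of 1.89 (SE 0.34). Slopes were above 0 for 97 of the 105 interferon genes (median 0.62) and for 10237 of all 15543 genes (median 0.13). The meningeal genes had a median slope of 2.72, with none called. The dopamine neuron genes, of which 6 were lower on the high side, had a median slope of 0.23 here. Slopes were above 0 for 8 of these 11, with none called. With the meningeal score in the fit only Gbp7 was called.

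Values are given separately for the identifier formats. Within the decimal libraries, with 7 on the high side, 39 genes (0.251%) were higher and none lower in limma, and 244 were lower at an unadjusted p under 0.05. These 39 hold 28 of the 105 interferon genes, among them Mx1 (1.17), Usp18 (1.13) and Oas1a (1.12). Within the hexadecimal libraries, which include library 39, Mx1 gave 2.01, Usp18 1.56 and Oas1a 1.52. Col1a2 gave 0.73 within decimal and 2.29 within hexadecimal libraries. The interaction of side and format called no gene in limma (lowest adjusted p = 0.313), and 2456 genes had an unadjusted p under 0.05. Judged by whether Xist or the Y-linked Ddx3y was higher, 9 of the 20 high and 39 of the 60 low libraries were of the Xist class. With that class as a covariate, 3925 genes were higher and 1209 lower, and Mx1 gave 1.76. In 4 of the 141 libraries both sex genes exceeded 10 CPM, 1 of them on each side. Slc17a7, a marker of cortical and other glutamate neurons, exceeded 100 CPM in 2 high and 2 low libraries.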

How the data were processed

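Expression was quantified by the authors with kallisto 0.48, per the submitters' processing notes, and the deposited table holds 1 log2 value per gene and library. The build of the genome was not given in the sources used here. The deposited log2 values were taken as log2(estimated count + 1), read from the values themselves: 0 stays 0 and the back-transformed totals differ between libraries. They were back-transformed and scaled to 1000000 per library (CPM). Genes with a mean log2(CPM+1) of at least 1 were kept, 15546 of 38354 in the table. Sides were compared with limma 3.58.1 in R 4.3.3 (mean-variance trend, two-sided, Benjamini-Hochberg over 15543 genes, the 3 ranking genes left out, pseudocount 1). A fold change on this scale understates the change of low genes. The script was tested on simulated data.

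The members, the gene lists and the tests were chosen with earlier results of these data known. Named genes are the ranking genes, the 10 largest changes in each direction with the same sign in both identifier formats, the 10 largest rises outside the lists, and list members with the largest, smallest, defining or median values. The genes named from the fit with the meningeal score and from the libraries of neither side were chosen after their values were seen. The totals of the interferon lists include genes whose own values are not reported here. Samples carry no replicate numbers that pair them. The p-values measure the spread between libraries, each taken as 1 animal.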

Additional observations from a re-analysis of the deposited data

How the results depend on the processing

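Higher genes outnumbered lower ones except with median-ratio scaling. The 4630 genes higher on the high side became 2914 with median-ratio scaling, 2209 with the 10 highest against the 60 lowest libraries, 1893 with the sides ranked by Irf7 alone, 39 within decimal identifiers and 104 with the meningeal score as covariate. The 1499 lower genes became 3093, 343, 223, 0 and 2 under the same 5 settings, and 804 without the 3 highest-ranked libraries. Within decimal identifiers 244 genes were lower at an unadjusted p under 0.05 in limma. Of the 88 interferon genes, 28 were called within decimal identifiers and 52 with the meningeal score. In the libraries of neither side, the 8 rising genes became 1 with the meningeal score, and 5654 rising and 2091 falling genes were called when all libraries with Th entered, which include the sides. Of the 100 called genes that were followed one by one, all 100 passed without library 39 and with median-ratio scaling, 49 with the meningeal score, 25 within decimal identifiers, and 81 to 100 under the other settings, and none of them changed sign. Settings with fewer libraries have less power, and otherwise the cause was not tested. The covariates meningeal score and sex class and the fit without library 39 were chosen after seeing the data. No paired analysis was possible because the labels give the libraries no shared replicate numbers.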

Other observations

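Ifit1, of the same family as Ifit2 and Ifit3, was listed at 0 in 53 of the 141 libraries with Th, 10 of 20 on the high side and 21 of 60 on the low side. Its median was 0.0193 CPM on the high and 1.19 CPM on the low side, and 7 of 20 high and 31 of 60 low libraries had over 1 CPM. In library 39 it was listed at 0 while Ifit2 had 126 CPM. Its highest value was 33.5 CPM on the high side and 5.14 CPM on the low side. It lay below the filter and was not tested. How reads were assigned among the Ifit genes, or among alleles, was not tested, so a listed 0 is not read as a lack of response.

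Of the 18 genes of the 6 interferon lists below the filter, 16 had a higher median on the high side. Ifit1 had a lower median there, and Gbp3 had a median of 0 on both sides. The share over all genes below the filter was not computed, so this count has no background. The number of high libraries above every low one ran from 0 to 11 (median 4). Irf4 and Oas1k had 0 such libraries, and Oasl, Zbp1 and Gbp4, chosen after their values were seen, had the most. Oasl had up to 9.39 CPM on the high side, reached in library 39, and 11 of the 20 high libraries lay above the low side's highest value of 1.00 CPM. Zbp1, a sensor of Z-form nucleic acid, had a median of 0.522 CPM on the high and 0.143 CPM on the low side, and 11 high libraries lay above every low one. Gbp4 had medians of 1.21 and 0.585 CPM, with 10 high libraries above every low one.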
